A study of Mus musculus with 38 samples.

Results

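Hepatic stellate cells and the extracellular matrix of the liver were followed through 10 genes in livers of mice fed 1 of 2 triazole fungicides or phenobarbital. The genes were chosen by name, with earlier results of these data known. These are the collagen genes Col1a1, Col1a2, Col3a1 and Col4a1, the proteoglycan gene Dcn, the intermediate filament gene Des, smooth muscle actin Acta2, the protease inhibitor Timp1, the collagen cross-linking enzyme Lox and Reln, which encodes reelin. They were 10 of the 18194 genes with a probe set of their own on the arrays, and all 10 entered the test. Male mice of the outbred CD-1 stock, 6 to 8 weeks old, were used, and liver RNA was hybridised to Affymetrix mouse 430_2 arrays, 38 arrays in all. In the conazole experiment 3 animals per group received control feed, propiconazole at 2500 ppm or triadimefon (spelled tridimefon in the labels) at 1800 ppm for 4 or 30 days. In the phenobarbital experiment 5 animals per group received control feed or phenobarbital at 850 ppm for the same times. Average intakes were 349.6 ± 46.7 mg/kg/day of propiconazole, 257.1 ± 33.5 of triadimefon and 97.2 ± 5.9 of phenobarbital, so the doses were not matched. The labels name no transgene or deletion, and all groups were intact mice of the same stock. Each experiment had its own controls, and propiconazole and triadimefon shared the same 3 control animals on each day.

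Stellate cells lie between the hepatocytes and the sinusoidal endothelium, store vitamin A as retinyl esters and are the main source of fibrillar collagen when the liver scars. On activation they lose their retinoid droplets, take up features of smooth muscle and secrete collagen, its cross-linking enzyme and the inhibitors of the proteases that would remove it. Quiescent cells are known by Reln, Des and Lrat, while Acta2 is also made by vascular smooth muscle and Dcn and the collagens also by portal fibroblasts. In whole liver these cells are a minority, and fewer cells of a type and less RNA per cell cannot be told apart in bulk RNA.

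Upstream sequences are shown for the members the results turn on: Col1a2 and Col3a1, whose signals moved together from animal to animal, and Timp1 and Reln, which carried the clearest rise and fall on probe sets that were not contradicted by others. They are the 250 bases before the RefSeq start of each gene, on the gene's own strand, in build GRCm38.p6 (7 of the 10 members had an entry). Col1a2 lies at chr6:4505368-4505617 on the plus strand, Col3a1 at chr1:45311288-45311537 (plus), Timp1 at chrX:20869916-20870165 (plus) and Reln at chr5:22344706-22344955 (minus). Capitals mark the matches to 4 short motifs searched on both strands: TATAAA, found in many core promoters, then CCAAT, which binds NF-Y, then GGGCGG, which binds Sp1, and finally TGANTCA, the site of AP-1 factors. No matches overlapped.
Col1a2: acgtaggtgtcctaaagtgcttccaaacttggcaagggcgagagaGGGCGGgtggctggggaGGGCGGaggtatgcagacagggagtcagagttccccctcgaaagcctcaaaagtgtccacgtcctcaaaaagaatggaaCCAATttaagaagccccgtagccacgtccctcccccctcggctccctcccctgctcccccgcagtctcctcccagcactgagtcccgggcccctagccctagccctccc
Col3a1: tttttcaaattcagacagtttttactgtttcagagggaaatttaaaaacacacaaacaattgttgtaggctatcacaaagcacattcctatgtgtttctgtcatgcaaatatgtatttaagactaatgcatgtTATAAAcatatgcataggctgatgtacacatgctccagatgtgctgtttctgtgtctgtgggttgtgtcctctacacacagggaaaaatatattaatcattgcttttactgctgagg
Timp1: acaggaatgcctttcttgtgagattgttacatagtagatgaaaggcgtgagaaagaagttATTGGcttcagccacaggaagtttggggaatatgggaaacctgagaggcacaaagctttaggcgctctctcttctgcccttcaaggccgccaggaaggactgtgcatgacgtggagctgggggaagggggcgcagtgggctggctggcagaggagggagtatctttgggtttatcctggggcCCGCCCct
Reln: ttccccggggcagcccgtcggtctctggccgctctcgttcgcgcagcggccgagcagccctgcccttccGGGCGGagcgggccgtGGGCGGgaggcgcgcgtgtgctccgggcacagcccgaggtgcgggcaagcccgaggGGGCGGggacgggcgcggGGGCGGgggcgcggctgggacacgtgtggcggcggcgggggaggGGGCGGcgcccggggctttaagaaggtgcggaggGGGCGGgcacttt
The Reln window held 6 matches to GGGCGG, Col1a2 held 2 and Timp1 held 1. Col1a2 and Timp1 each had 1 match to CCAAT, Col3a1 had 1 to TATAAA, and TGANTCA was in none of these windows. Among the 32851 windows of this length in the same table, 32.7% held GGGCGG, 33.8% CCAAT, 12.4% TATAAA and 6.75% TGANTCA. Col1a2 and Col3a1 thus shared none of the matched motifs in these windows. These matches are letters in a window and do not show that a factor binds.

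Values are log2(intensity + 16) after quantile normalization, on which the floor is 4, and a change is treated minus control on that scale with its standard error. Background, the level below which a probe set was taken as not measured, was 6.13. Of the 10 members, 6 had a mean above it (Col1a2, Col3a1, Col4a1, Dcn, Acta2 and Reln), while Col1a1, Des, Timp1 and Lox were dimmer. Before normalization the arrays' median intensities ran from 12.5 to 34.5 in the conazole experiment and from 25.0 to 36.1 in the phenobarbital experiment. Propiconazole day 4 replicate 2 stood apart, with a Gapdh 3′ minus 5′ log2 difference of 6.39, compared with -0.37 to 0.22 elsewhere (37 arrays). The same difference for Actb was 0.62 to 1.84 on the day 4 conazole arrays and 0.28 to 0.47 on all others. Mean correlation with the rest of the group was 0.818 to 0.875 among the propiconazole day 4 arrays and at least 0.954 in each other group. Tissue identity was as labelled, with all 8 measured hepatocyte markers above background. Adjusted p-values are from limma with Benjamini-Hochberg adjustment over 17729 genes, and a gene is called at an adjusted p under 0.05.

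After 4 days of propiconazole, 3 members were called: Timp1 rose, and Lox and Reln fell. In that comparison 13.9% of all genes were called. After 30 days only Des was called, lower, against a background of 10.8%. Triadimefon called 2 members on day 4 (Timp1 higher, Lox lower; background 3.75%) and 0 on day 30 (5.4%). Phenobarbital called 0 on day 4 (background 0.677%) and 0 on day 30 (0.479%), with 4 and 0 members at an unadjusted p under 0.05. For triadimefon on day 30, 3 members had an unadjusted p under 0.05. With limma fitted to the arrays of a comparison alone, phenobarbital on day 4 called 1 member triadimefon on day 30 and phenobarbital on day 30 called 0, and the day 4 calls of Timp1, Lox and Reln did not pass (adjusted p = 0.41, 0.44 and 0.39 for propiconazole, 0.17 for Timp1 and 0.26 for Lox under triadimefon). With array weights the 3 propiconazole day 4 calls were also lost (adjusted p = 0.29, 0.15 and 0.49). The median change of the 10 members was -0.45, -0.33, -0.31 and -0.19 for propiconazole on days 4 and 30 and triadimefon on days 4 and 30, beside medians of all genes of 0.034, 0, 0 and -0.0016. Under phenobarbital it was 0.31 on day 4 and -0.086 on day 30, beside 0 for all genes on both days. The plot of changes with intervals shows all of them.

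**Figure D1:**
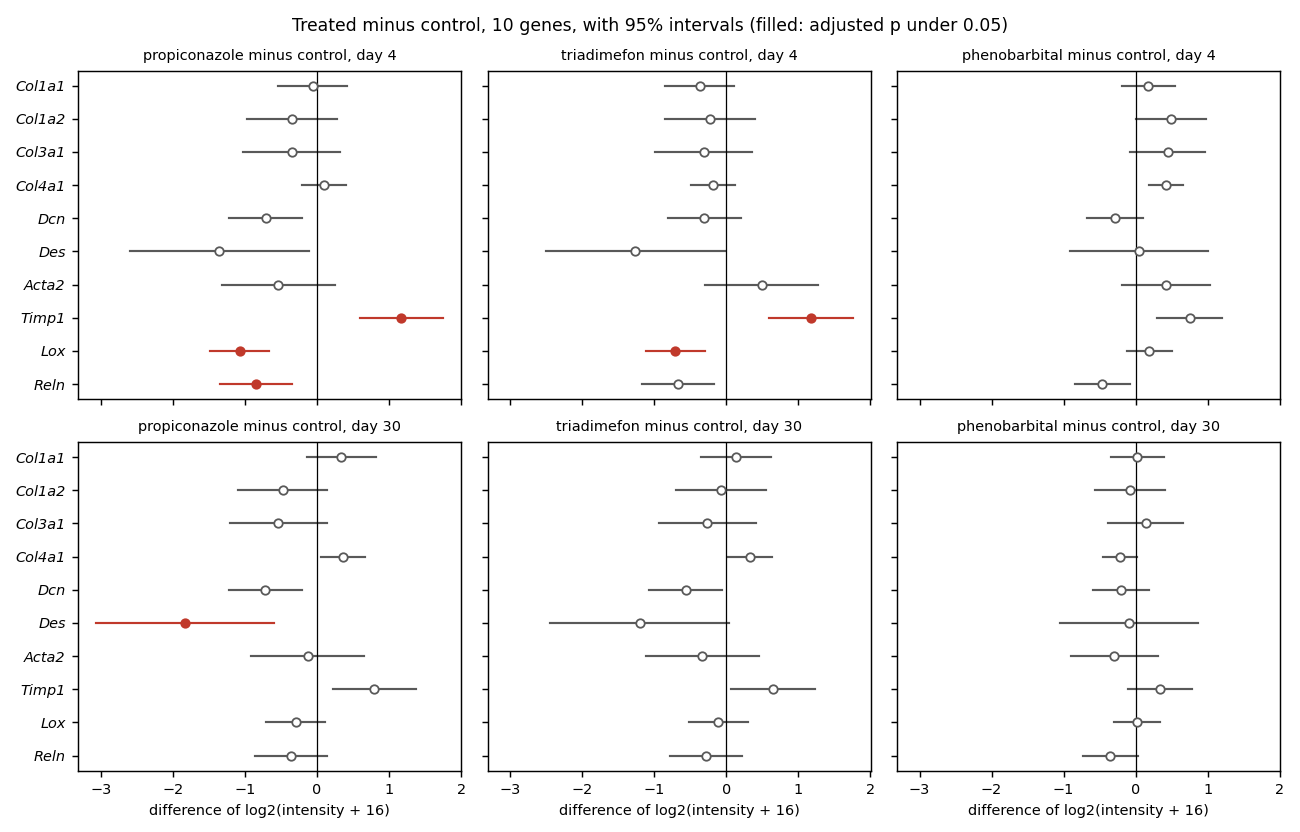
Change of each of the 10 genes (treated minus control, log2 scale) in the 6 treated comparisons, with 95% intervals and filled red points where the adjusted p was under 0.05. Timp1 lies right of 0 and Reln left of 0 in all 6 panels, and no collagen point is filled.

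Timp1 encodes tissue inhibitor of metalloproteinases 1, which blocks collagenases. On day 4 its level was 5.41, 5.0 and 5.09 in conazole controls, 5.89, 6.63 and 6.49 under propiconazole and 6.07, 6.84 and 6.12 under triadimefon. Every treated animal was above every control. The rise was 1.17 ± 0.29 for propiconazole (adjusted p = 0.0066, limma) and 1.18 ± 0.29 for triadimefon (adjusted p = 0.017). Since all controls were below background, the treated means were at least 1.15-fold and at least 1.16-fold higher, with 2 of 3 propiconazole and 1 of 3 triadimefon arrays above background. Arrays did not overlap and were higher in 9.37% of all genes for propiconazole and 10.5% for triadimefon. The propiconazole call was lost with values as deposited (0.72, adjusted p = 0.12), and the triadimefon call without control replicate 2 (adjusted p = 0.074) or triadimefon replicate 2 (0.93, adjusted p = 0.10).

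On day 30 Timp1 stood at 5.49, 5.53 and 4.99 in controls, 5.58, 6.65 and 6.16 under propiconazole and 6.20, 5.88 and 5.86 under triadimefon. The groups again did not overlap (higher in 11.9% and 9.27% of all genes), but neither change passed: 0.80 ± 0.29 (adjusted p = 0.070) and 0.64 ± 0.29 (adjusted p = 0.20). Without propiconazole day 30 replicate 1 the first was 1.07 (adjusted p = 0.022), and without phenobarbital control day 30 replicate 5 its adjusted p was 0.031. With a pseudocount of 64 it was 0.43 (adjusted p = 0.036). Under phenobarbital on day 4 the 5 treated animals stood at 5.30, 5.07, 5.22, 4.61 and 5.31, all above the 5 controls at 4.50, 4.25, 4.37, 4.47 and 4.15, as was so for 2.88% of all genes. All 10 values were below background, and the change of 0.75 ± 0.22 did not pass (adjusted p = 0.13). On day 30 phenobarbital animals at 4.53 to 5.02 overlapped controls at 4.00 to 5.40 (change 0.34 ± 0.22). The day 4 change under propiconazole minus that under phenobarbital was 0.42 (95% interval -0.32 to 1.15), and for triadimefon it was 0.43 (-0.31 to 1.16). Timp1 has 1 probe set, so no second one could be set beside it.

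Lox encodes lysyl oxidase, which oxidises lysines so that collagen and elastin can cross-link. The brightest of its 3 probe sets read 6.95, 6.59 and 7.14 in day 4 conazole controls, all above background. Under propiconazole it read 6.08, 5.44 and 5.94, all below background, and under triadimefon 5.96, 6.11 and 6.49. Neither treated group overlapped the controls, as was so for 6.85% (propiconazole) and 8.90% (triadimefon) of all genes in the lower direction. Lox fell by 1.07 ± 0.20 under propiconazole (adjusted p = 7.6e-04), at least 1.69-fold lower. Under triadimefon, where 1 of 3 arrays was above background, the fall was 0.71 ± 0.20 on the same scale (change -0.71, adjusted p = 0.043). The propiconazole call held without each of the 38 arrays in turn. The triadimefon call was lost in 7 of those 38 settings, among them without control replicates 1 and 3 and without triadimefon replicates 1 and 2 (adjusted p = 0.11, 0.14, 0.20 and 0.11), and with values as deposited (-0.38, adjusted p = 0.31) or median centring (-0.53, adjusted p = 0.12).

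The other 2 Lox probe sets did not follow it. One changed by 0.02 ± 0.33 and -0.13 ± 0.33 on day 4 and was below background on all 38 arrays. The dimmest, also below background throughout, was higher in all 4 conazole comparisons when every probe set was tested, by 0.52, 0.58, 0.68 and 0.67 for propiconazole on days 4 and 30 and triadimefon on days 4 and 30 (limma adjusted p = 0.035, 0.022, 0.018 and 0.015). The fall of Lox therefore rests on 1 of 3 probe sets, and with the mean of the probe sets its change under propiconazole on day 4 was -0.18 (adjusted p = 0.37). On day 30 the brightest probe set read 5.96, 6.54 and 6.44 in controls, 6.27, 5.64 and 6.14 under propiconazole and 6.27, 6.05 and 6.29 under triadimefon, and the groups overlapped. In the phenobarbital experiment it read 5.26 to 5.64 in day 4 controls and 5.41 to 5.78 in treated animals, all below background. The propiconazole change minus the phenobarbital change on day 4 was -1.27 ± 0.26 (adjusted p = 0.014), the only member called among the differences between compounds, where 1.83% of all genes were called. As the phenobarbital controls were already below background, a fall of Lox there could not be measured. The Lox difference therefore cannot compare the effects of the 2 compounds. On day 30, and for triadimefon on both days, 0 members were called (background 1.92%, 0.0451% and 0.451%; 2, 2 and 1 members at an unadjusted limma p under 0.05). With only the arrays compared, Col4a1 was called in both day 30 differences. The Lox call was lost with the mean of the probe sets (-0.37, adjusted p = 0.22). The plot by probe set shows the disagreement.

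**Figure D2:**
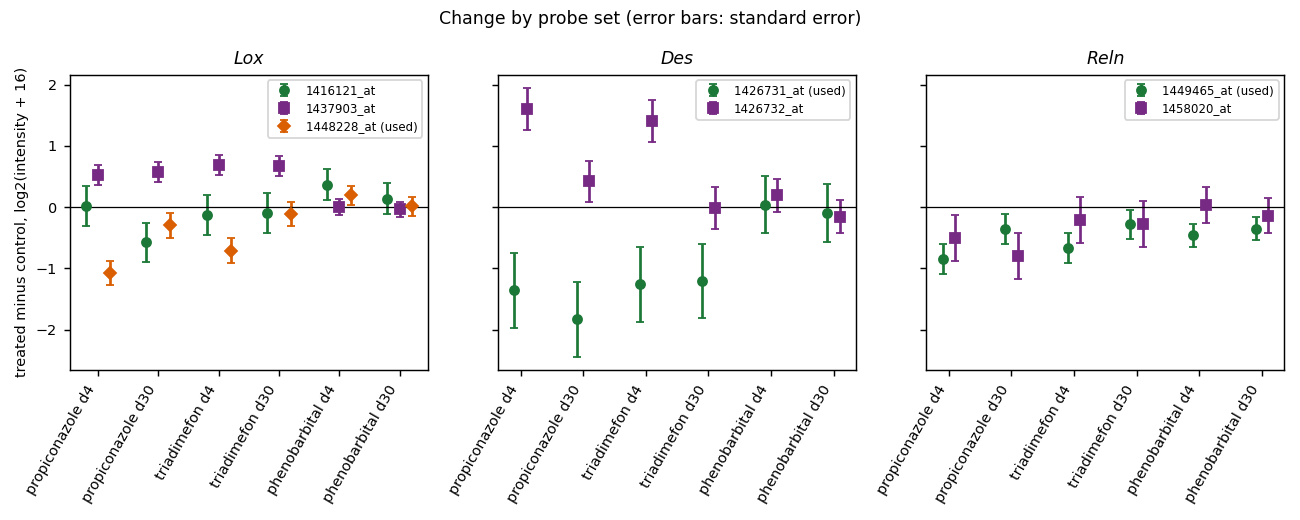
Treated minus control change (log2 scale, error bars standard errors) by probe set for Lox, Des and Reln in the 6 treated comparisons. The Lox and Des probe sets diverge under the conazoles, with Des at -1.36 and 1.61 for propiconazole on day 4, whereas both Reln probe sets lie below 0 in the 4 conazole comparisons.

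Reln encodes reelin, a large secreted glycoprotein that in liver is made by stellate cells and sinusoidal endothelium. It was above background on all 38 arrays. On day 4 it stood at 9.92, 9.85 and 9.30 in conazole controls and at 8.92, 8.66 and 8.95 under propiconazole. These groups did not overlap, as was so for 6.85% of all genes in the lower direction. The fall was 1.80-fold (change -0.85 ± 0.24, adjusted p = 0.019). Triadimefon animals read 8.71, 9.32 and 9.02, of which 1 lay above the lowest control, and the change of -0.67 ± 0.24 did not pass (adjusted p = 0.12). Phenobarbital animals read 9.19, 8.41, 9.40, 9.73 and 9.29 on day 4 against 9.65, 9.53, 9.75, 9.70 and 9.70 in controls, a change of -0.46 ± 0.19 (adjusted p = 0.36) with 4 of 5 treated animals below all controls.

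On day 30 Reln overlapped between groups in each comparison: 9.39, 9.38 and 9.96 in conazole controls, 9.21, 8.90 and 9.54 under propiconazole and 9.03, 9.68 and 9.17 under triadimefon. Its changes were -0.36 ± 0.24 and -0.28 ± 0.24, and -0.35 ± 0.19 under phenobarbital (adjusted p = 0.40, 0.60 and 0.83). The 5 controls of the phenobarbital experiment were at 9.67, 9.78, 10.03, 9.71 and 9.24 on day 30, and the treated animals at 9.10, 9.59, 9.40, 9.06 and 9.53. Reln was thus lower on average in all 6 comparisons and called in 1. A second Reln probe set changed by -0.51, -0.80, -0.21 and -0.28 in the 4 conazole comparisons and by 0.03 under phenobarbital on day 4, none called. The day 4 propiconazole call was lost without control replicate 1 (-0.73, adjusted p = 0.089), control replicate 2 (adjusted p = 0.077) or propiconazole replicate 2 (-0.75, adjusted p = 0.081), the array with the Gapdh 3′ excess.

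**Figure D3:**
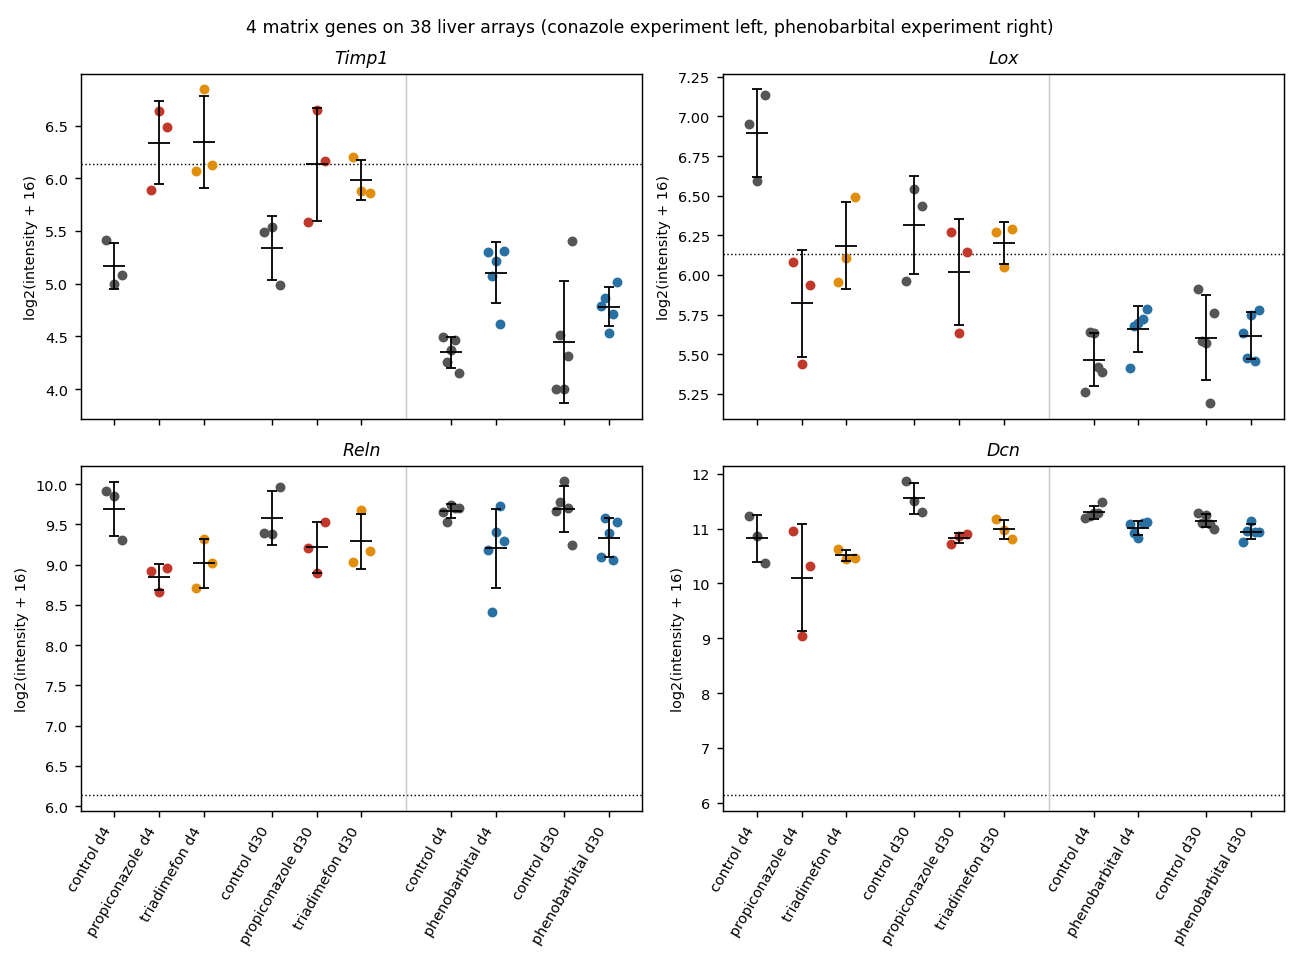
Level of Timp1, Lox, Reln and Dcn on each array (points) in the 10 groups, with group mean and SD (bars), on the log2(intensity + 16) scale, with background (6.13) as a dotted line. Timp1 is higher in every conazole animal than in its day's controls, and Dcn on day 30 is lower in all 6 conazole animals.

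Dcn encodes decorin, a small leucine-rich proteoglycan that binds collagen fibrils and TGF-beta, and was above background on all 38 arrays. On day 30 it read 11.86, 11.50 and 11.30 in conazole controls, 10.73, 10.87 and 10.90 under propiconazole and 11.18, 10.97 and 10.82 under triadimefon. No treated animal reached the lowest control, which held in the lower direction for 12.4% and 11.8% of all genes. The changes were -0.72 ± 0.25 (adjusted p = 0.058) and -0.57 ± 0.25 (adjusted p = 0.20), neither of which passed. On day 4 controls read 11.23, 10.87 and 10.37 and propiconazole animals 10.97, 9.04 and 10.32, with the lowest value on replicate 2, and the change was -0.72 ± 0.25 (adjusted p = 0.051). Triadimefon animals on day 4 read 10.63, 10.45 and 10.47, inside the control range.

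These Dcn values lie at the edge of the threshold. When propiconazole day 4 replicate 2, which also enters the shared spread, was left out, Dcn passed on day 30 for propiconazole (adjusted p = 0.0023) and triadimefon (adjusted p = 0.022). Without propiconazole day 4 replicate 1 the propiconazole day 4 change was -1.14 (adjusted p = 7.1e-04). The adjusted p was also under 0.05 for propiconazole on day 4 without control replicate 3 (0.021) or propiconazole replicate 3 (0.034), and on day 30 without day 4 propiconazole replicate 1 (0.015) or day 4 control replicate 3 (0.049). Phenobarbital animals on day 4 (11.09, 10.91, 10.83, 11.11 and 11.12) were all below their controls (11.19, 11.23, 11.29, 11.29 and 11.49), as was so for 2.22% of genes in that direction, by -0.29 ± 0.19 (adjusted p = 0.75). On day 30 phenobarbital animals at 10.77 to 11.14 overlapped controls at 10.99 to 11.30.

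The fibrillar collagens, which form the bulk of scar matrix, were not called in any treated comparison. Col3a1, the type III collagen chain, read 9.22, 9.63 and 9.17 in day 4 conazole controls, 9.64, 8.85 and 8.47 under propiconazole and 8.24, 9.42 and 9.41 under triadimefon. The propiconazole values spanned the controls, and the triadimefon values overlapped them, with the highest control above every triadimefon animal. On day 30 it read 9.98, 8.66 and 8.72 in controls, 8.56, 8.43 and 8.76 under propiconazole and 8.96, 8.85 and 8.75 under triadimefon, and 1 control animal lay well above the rest. Its changes were -0.35, -0.54, -0.31 and -0.27 (standard error 0.33 each) for propiconazole on days 4 and 30 and triadimefon on days 4 and 30.

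Col1a2, a chain of type I collagen, gave -0.35, -0.48, -0.23 and -0.08 (standard error 0.31 each). Its day 30 control values of 9.35, 7.98 and 7.95 came high in the same animal as those of Col3a1. Under phenobarbital on day 4 Col1a2 read 8.20, 8.25, 8.19, 8.48 and 8.68 against 8.06, 7.86, 7.75, 7.49 and 8.19, a change of 0.49 ± 0.24 (adjusted p = 0.51), and Col3a1 changed by 0.45 ± 0.25 (adjusted p = 0.63). The 95% intervals of these 2 genes in the 6 comparisons ran from -1.21 at the lowest to 0.97 at the highest. Col1a1, the other type I chain, was above background on 2 of 38 arrays, and its changes ran from -0.37 to 0.34. Under propiconazole on day 30 Col1a1 stood at 6.07, 5.86 and 5.85 against 5.71, 5.30 and 5.76 in controls, without overlap (11.9% of genes in the higher direction) but not called (adjusted p = 0.42).

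Col4a1, a chain of the network collagen of basement membranes, was above background on all 38 arrays. On day 30 it read 8.97, 8.71 and 9.01 under propiconazole and 8.68, 8.90 and 8.98 under triadimefon against 8.73, 8.35 and 8.52, with 1 value of each treated group inside the control range. Its changes were 0.36 ± 0.15 and 0.32 ± 0.15 (adjusted p = 0.12 and 0.23). Under phenobarbital on day 4 the treated animals read 8.80, 8.73, 8.73, 8.97 and 8.94 and the controls 8.37, 8.45, 8.22, 8.25 and 8.76. Its change of 0.43 ± 0.12 (adjusted p = 0.086) passed without control replicate 5 (0.51, adjusted p = 0.028) and without day 4 propiconazole replicate 1 or 3 (adjusted p = 0.046 and 0.048).

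Des and Acta2 are the cytoskeletal genes of the set. Des encodes desmin, the intermediate filament protein by which rodent stellate cells are recognised. On day 30 the probe set with the higher mean over all arrays read 6.18, 5.88 and 5.73 in conazole controls and 4.00, 4.00 and 4.29 under propiconazole, with 1 control array above background. It fell by 1.83 ± 0.61 on the log2 scale (adjusted p = 0.048). No fold is given since the control mean was itself below background. The call was lost in 24 of the 38 settings that left out an array, with an adjusted p of up to 0.13, and with every probe set fitted (adjusted p = 0.056).

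Under triadimefon on day 30 Des read 4.74, 4.00 and 5.43, also below all controls (-1.20 ± 0.61, adjusted p = 0.28), as was so for 11.8% of all genes. On day 4 it was uneven among controls at 5.96, 8.61 and 5.93, with propiconazole animals at 6.19, 4.69 and 5.53 and triadimefon animals at 4.71, 4.76 and 7.23. Without triadimefon replicate 3 the day 4 triadimefon change was -2.10 (adjusted p = 0.039). The second Des probe set went the other way on day 4. It read 4.00, 4.80 and 5.88 in controls, 6.23, 6.70 and 6.56 under propiconazole and 6.07, 6.85 and 5.99 under triadimefon, changes of 1.61 and 1.41 (adjusted p = 0.0026 and 0.019 when every probe set was tested). On day 30 it read 6.21, 6.63 and 6.24 in controls, all above background, and 6.03, 7.22 and 7.10 under propiconazole, a change of 0.42 (adjusted p = 0.54) where the other probe set was called lower. No direction is therefore given for the gene.

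Acta2, smooth muscle actin, was above background on all 38 arrays and called in none of the treated comparisons. On day 4 it read 8.07, 8.56 and 8.28 in conazole controls, 8.81, 6.93 and 7.55 under propiconazole and 8.88, 8.30 and 9.22 under triadimefon. The spread under propiconazole was the widest, with replicate 2 lowest, and without replicate 1 the change was -1.06 (adjusted p = 0.048). On day 30 values of 8.06 to 9.41 in controls, 8.08 to 9.15 under propiconazole and 8.09 to 8.46 under triadimefon overlapped. Phenobarbital changed it by 0.42 ± 0.30 on day 4 and -0.29 ± 0.30 on day 30.

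Propiconazole and triadimefon, fed at different doses and read against shared controls, gave 0 members called when set against each other on day 4 or day 30, where 1.84% and 3.9% of all genes were called. By limma 1 member on day 4 (Acta2, -1.03, 95% interval -1.82 to -0.25, adjusted p = 0.14) and 0 on day 30 had an unadjusted p under 0.05. With values as deposited, 4 members were called on day 4. The Timp1 difference on day 4 was -0.01 (95% interval -0.59 to 0.57), that of Lox -0.37 (-0.78 to 0.05) and that of Reln -0.17 (-0.67 to 0.32). These intervals leave room for differences as large as the changes of Lox and Reln themselves under triadimefon.

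Day 30 changes minus day 4 changes were called for 0 members for each compound, with 1, 2 and 1 members at an unadjusted limma p under 0.05 for propiconazole, triadimefon and phenobarbital (background 1.95%, 1.31% and 0.00564%). With limma fitted to the arrays compared alone the counts were also 0. The Lox change under propiconazole was 0.78 ± 0.29 higher on day 30 than on day 4 (adjusted p = 0.15), and the Timp1 change 0.38 lower (difference -0.38 ± 0.40, adjusted p = 0.70). The conazole controls themselves differed between the days, with 5.32% of all genes called. Their Actb 3′ minus 5′ log2 difference was 1.30, 0.80 and 1.10 on day 4 and 0.37, 0.37 and 0.37 on day 30. Its part in the differences between days was not tested. Dcn in controls was 0.73 ± 0.25 higher on day 30 (adjusted p = 0.079) and Lox lower (-0.58 ± 0.20, adjusted p = 0.087), both without overlap (10.7% of genes higher and 10.9% lower), and 0 members passed (3 at an unadjusted p under 0.05). Without day 4 propiconazole replicate 2 both passed (Dcn adjusted p = 0.0036, Lox adjusted p = 0.0499), and without replicate 1 of that group Dcn passed (adjusted p = 0.023). Phenobarbital controls called 0 members and 0% of all genes, and 0 members had an unadjusted p under 0.05.

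Within groups, animals with more Col3a1 signal also had more Col1a2. Over the 38 arrays, deviations from the group mean correlated at r = 0.91 (0.91 without propiconazole day 4 replicate 2). The arrays share their normalization, so this is given as a description. The 6 genes most like Col3a1 by this measure among those above background were Col1a2, the actin cross-linker Flna (r = 0.74), Col4a1 (0.67), the type VI collagen gene Col6a3 (0.66), Anxa2 (0.66) and Gsn, which encodes gelsolin (0.65). Col1a1 followed Col1a2 at 0.61 and Col3a1 at 0.58 although it was dim. Reln followed Col3a1 at 0.29. Timp1 and Lox followed none of the other members closely, with r from -0.29 to 0.02 for Timp1 and from -0.25 to 0.18 for Lox. Both were dim, above background on 6 and 10 of 38 arrays, which limits what these correlations can show. The 6 genes nearest Timp1 were Hk1 (0.57), Ptprm (0.57), Dab2 (0.56), Plekhm2 (0.56), Tbc1d9b (0.55) and Ywhab (0.55).

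**Figure D4:**
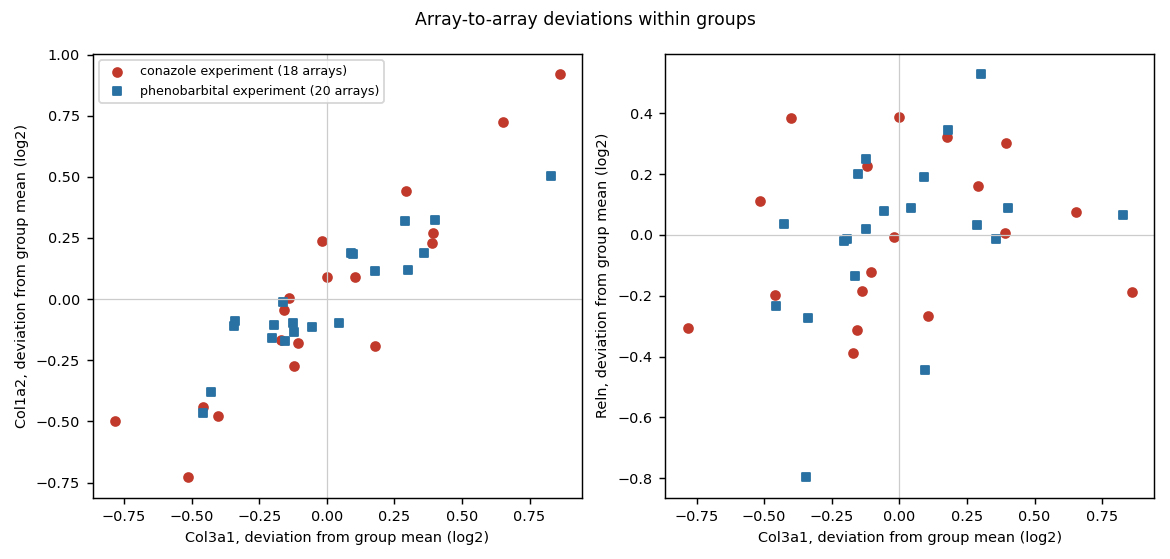
Deviation of each array from its group mean (log2) for Col3a1 against Col1a2 (left) and against Reln (right), for 18 conazole and 20 phenobarbital arrays. The Col1a2 points follow a line (r = 0.91), whereas the Reln points are scattered (r = 0.29).

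Some other markers of stellate cells were called lower in conazole livers, and most were not called. Of 17 listed markers besides the members, 16 were measured and 11 had a mean above background. Of the 16, propiconazole lowered 4 on day 4 and 4 on day 30, and triadimefon lowered 3 on day 4 and 1 on day 30, with 0 higher in each. The share of all genes called lower was 6.53%, 5.53%, 1.65% and 3%. Phenobarbital called 0 of 16 on either day. The list median was -0.44 and -0.45 under propiconazole, -0.48 and -0.25 under triadimefon and -0.06 and -0.16 under phenobarbital (days 4 and 30). With limma fitted to the arrays of each comparison alone the counts lower were 0, 1, 0 and 0 for the conazoles, and with array weights the day 4 propiconazole count was 0. The day 4 propiconazole count was 1 without control replicate 1, 2 without control replicate 2 and 3 without propiconazole replicate 2. The day 30 propiconazole count was 1 without replicate 3 of the treated group, the triadimefon day 4 count 1 without control replicate 1 or triadimefon replicate 1 or 2, and the triadimefon day 30 count 2 without day 4 propiconazole replicate 2.

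Angptl6, an angiopoietin-like secreted protein, had the largest called changes on day 30 and under triadimefon. It stood at a mean of 5.72 against 7.43 under propiconazole on day 30 (at least 2.46-fold lower, adjusted p = 0.0023), and changed by -1.94 ± 0.37 and -2.02 ± 0.37 under triadimefon on days 4 and 30 (adjusted p = 0.0029 and 0.0013). The Angptl6 calls held without each of the 38 arrays, and each triadimefon call was lost in 1 of 8 processing alternatives. On day 4 propiconazole lowered Vipr1, the receptor for vasoactive intestinal peptide (-1.53 ± 0.25, adjusted p = 1.8e-04), Sod3, Cygb and Colec11 (-1.61, -0.86 and -0.63). Vipr1 was below background in both group means, with 0 of 3 treated and 1 of 3 control arrays above it, so that its size is uncertain and no fold is given. The Sod3 change was -0.46 (adjusted p = 0.43) without propiconazole replicate 2. On day 30 Lrat, which esterifies vitamin A for storage, was at least 1.67-fold lower and Cygb, a globin of stellate cells, at least 1.71-fold lower (adjusted p = 0.029 and 0.034), and the chemokine gene Cxcl12 changed by -0.63. Without day 30 control replicate 3 the Lrat change was -0.84 (adjusted p = 0.17), and without control replicate 1 the Cygb change was -0.69 (adjusted p = 0.19). The day 30 Lrat and Cygb calls were lost in 5 and 3 of 8 processing alternatives. Triadimefon on day 4 also lowered Vipr1 (-0.87) and the pericyte gene Rgs5 (-0.61), calls lost in 3 and 19 of the 38 settings without an array and in 7 of 7 and 6 of 8 processing alternatives. For propiconazole on day 4, Cygb lost its call in 29 settings and Colec11 without control replicate 1 (adjusted p = 0.062).

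The summed intensity of the 16 markers was 4836 to 5821 in day 4 conazole controls, 3783 to 4427 under propiconazole and 3374 to 4549 under triadimefon. On day 30 it was 5440 to 6154, 3845 to 4745 and 4521 to 5480. The sums under propiconazole did not overlap the controls on either day, nor did those under triadimefon on day 4. In the phenobarbital experiment treated sums of 5070 to 6070 and 4937 to 5952 overlapped control sums of 5296 to 6057 and 5457 to 7213. None of the 16 was at the floor on more than 1 array. The sums are linear, so the brightest markers, Cxcl12, Rgs5, Colec11 and Ecm1 (mean log2 levels of 9.43 to 10.8), weigh most in them. On day 4, where the sums under both conazoles were below controls, Lox was called lower under both and Reln under propiconazole. On day 30 the propiconazole sums were below controls, while Reln and Lox overlapped controls and were not called. The part of these markers in the Reln and Lox results was not tested.

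**Figure D5:**
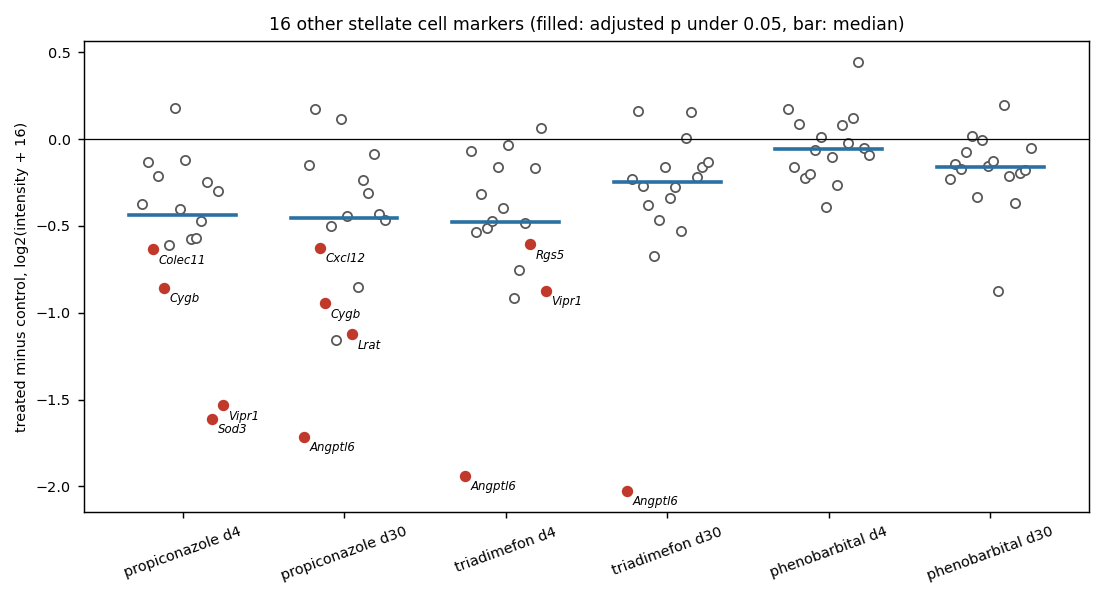
Treated minus control change (log2 scale) of 16 stellate cell markers that are not among the 10 genes, in the 6 treated comparisons, with names and filled points where the adjusted p was under 0.05 and bars at list medians. All named points lie below 0, between 1 and 4 per conazole comparison and 0 under phenobarbital.

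Markers of other cell types also differed. The share of all genes called, either way, was 13.9% and 10.8% under propiconazole on days 4 and 30, and 3.75% and 5.4% under triadimefon. Sinusoidal endothelial markers, 10 measured with 9 above background, had 2 lower under triadimefon on day 4, the scavenger receptor gene Stab2 (-0.66) and the lectin gene Clec4g (-0.82), with summed intensities of 1943 to 2946 against 2471 to 4619 in controls. They had 2 higher under triadimefon on day 30 (Lyve1 1.27, Cdh5 0.65) and 0 called elsewhere. Stab2 and Clec4g each lost the call in 4 of 8 processing alternatives and in 3 and 4 of the 38 settings without an array, and Lyve1 and Cdh5 each in 5 of 8 and 4 of 38, with adjusted p up to 0.17. Of 12 macrophage markers, 5 were higher under triadimefon on day 30 (list median 0.99, sums 6706 to 20815 against 5668 to 7397), among them Marco (at least 1.37-fold) and Timd4 (at least 2.23-fold), and 0 were called in the other 5 comparisons. Csf1r lost its call in 6 of 8 processing alternatives and 5 of the 38 settings without an array, and Timd4 in 3 of 8 and 4 of 38. Adgre1, C1qc and Marco lost theirs in 0, 1 and 2 of the 38 settings, and each in 1 processing alternative. Of 10 lymphocyte and neutrophil markers measured, of which 2 had a mean above background, the neutrophil gene S100a8 was the only one called under propiconazole on either day and under triadimefon on day 30 (list medians -0.001, 0.076 and -0.0055). It was at least 15.9-fold, 13.4-fold and 17.7-fold higher, with 0 of 3 control arrays and 3, 2 and 3 of 3 treated arrays above background. The treated animals differed widely under propiconazole, with SDs of 3.15 and 3.71 on the log2 scale against 0.52 under triadimefon. The propiconazole calls were lost in 3 and 2 of the 38 settings without an array, among them propiconazole replicate 2 on day 4 (3.53, adjusted p = 0.13) and on day 30 (4.06, adjusted p = 0.084). Of 8 hepatocyte markers 0 were called in any of the 6. On day 4, where Timp1 rose, the macrophage list had a median of 0.11 under propiconazole and -0.08 under triadimefon. The endothelial list had a median of -0.08 under propiconazole on day 4, where Reln fell. The part of the macrophage markers in the day 4 Timp1 results, and of the endothelial markers in the day 4 Reln result, was not tested. Nor was that of the neutrophil signal in the day 4 propiconazole results, or of the endothelial markers in the day 4 triadimefon results.

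Of 14 other collagens measured, Col15a1 was higher in all 6 comparisons. Col15a1 encodes a collagen of the zone around basement membranes. Its changes were 0.73, 0.83, 0.95, 0.67, 0.66 and 0.72 for propiconazole on days 4 and 30, triadimefon on days 4 and 30 and phenobarbital on days 4 and 30 (adjusted p = 0.017, 0.0080, 0.0078, 0.0497, 0.042 and 0.022). All treated animals lay above all controls in each, as was so for 9.37%, 11.9%, 10.5%, 9.27%, 2.88% and 2.24% of all genes. The comparisons of the 2 conazoles on a day share controls, and phenobarbital animals had controls of their own. The calls were not firm: without propiconazole replicate 2 the day 4 change was 0.50 (adjusted p = 0.14), without propiconazole replicate 2 the day 30 change was 0.56 (adjusted p = 0.091), and without control replicate 1 those of day 4 were 0.58 (adjusted p = 0.10) and 0.80 (adjusted p = 0.051). The triadimefon day 4 call was also lost without triadimefon replicate 1 (0.86, adjusted p = 0.055), the triadimefon day 30 call in 27 of 38 settings without an array, and the phenobarbital calls in 9 and 7. Besides it, Col18a1, a basement membrane collagen of which endostatin is a fragment, was lower under propiconazole on day 4 (-0.99 ± 0.17, adjusted p = 4.3e-04) and Col4a2, the partner chain of Col4a1, on day 30 (-0.61 ± 0.15, adjusted p = 0.0083). Neither call was lost without any 1 of the 38 arrays, and each was lost in 1 of 8 processing alternatives.

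Genes that act on the matrix were called one by one rather than as groups. Their counts stand beside the 13.9% and 10.8% of all genes called under propiconazole on days 4 and 30, 3.75% and 5.4% under triadimefon and 0.677% under phenobarbital on day 4. Of 14 collagen processing genes, 2 were higher under propiconazole on day 4, the prolyl hydroxylase subunits P4ha1 (1.11 ± 0.36) and P4ha2 (0.93 ± 0.28), and 1, Crtap (0.35), on day 30. P4ha1 lost its call in 5 and P4ha2 in 3 of the 38 settings without an array, with adjusted p up to 0.10 and 0.13. They also lost it in 5 and 4 of 8 processing alternatives. Crtap lost its call in 5 of the 38 settings and 5 of 8 alternatives. Of 15 matrix turnover genes, counts higher and lower were 3 and 1, 1 and 1, 1 and 0, and 0 and 1 for propiconazole on days 4 and 30 and triadimefon on days 4 and 30, and 2 and 0 for phenobarbital on day 4. Among them Timp2, a second inhibitor of matrix proteases, was lower on day 30 under propiconazole (-0.60) and triadimefon (-0.67). Both phenobarbital calls (Mmp12 and Mmp13) were of genes below background on every array compared. The same held for Mmp13, called higher under propiconazole on both days, and Reck, called lower under propiconazole on day 4. Of 7 proteoglycan genes, Bgn was lower under propiconazole on day 4 (-0.66), Lum on day 30 (-1.04) and Vcan under phenobarbital on day 4 (below background in 9 of 10 animals). Bgn, Lum and Timp2 each lost the call in 1 to 3 settings without an array, with adjusted p of up to 0.11, and in 1 to 3 of 8 processing alternatives. Of 10 basement membrane genes, Hspg2 was lower under propiconazole on both days and Agrn on day 30 (-0.78, -0.68 and -1.06). Those calls were lost in 2, 28 and 4 of the 38 settings, with Hspg2 at -0.36 on day 4 without propiconazole replicate 2 (adjusted p = 0.26) and Agrn at -0.61 without propiconazole day 30 replicate 3 (adjusted p = 0.27). In the same order they were lost in 3, 4 and 2 of 8 processing alternatives. Of 10 smooth muscle genes Tagln was lower on day 30 under propiconazole and triadimefon (at least 1.07-fold each) and Lmod1 called higher below background under triadimefon on day 4. Of 14 fibroblast and activation markers 1, Lum, was called lower.

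In the TGF-beta pathway, which drives collagen synthesis in activated stellate cells, 16 genes were measured. Counts higher and lower were 1 and 2, 2 and 2, 0 and 1, 3 and 1 for propiconazole on days 4 and 30 and triadimefon on days 4 and 30, and 1 and 0, then 0 and 0, for phenobarbital. The share of all genes called, either way, was 13.9%, 10.8%, 3.75%, 5.4%, 0.677% and 0.479% in the same order. Tgfbr2, the ligand-binding receptor, singled out after its values were seen, changed by 1.02 ± 0.21 and 1.08 ± 0.21 under propiconazole (adjusted p = 0.0021 and 0.0011), 0.36 ± 0.21 and 0.91 ± 0.21 under triadimefon (adjusted p = 0.39 and 0.010) and 0.73 ± 0.17 and 0.53 ± 0.17 under phenobarbital (adjusted p = 0.026 and 0.24), on days 4 and 30. The propiconazole calls held without each of the 38 arrays, the triadimefon call was lost without its replicate 1 (0.83, adjusted p = 0.056) and the phenobarbital call in 6 of 38 settings. Of 8 processing alternatives, 2 lost the propiconazole call of day 4 and 0 that of day 30. The triadimefon and phenobarbital calls were each lost in 1. Smad7, the inhibitor of the pathway, was lower on day 4 under propiconazole (-1.51 ± 0.32, adjusted p = 0.0022) and triadimefon (-1.15 ± 0.32, adjusted p = 0.039, lost in 4 of 38 settings). These 2 Smad7 calls were lost in 2 and 5 of 8 processing alternatives. The other called genes of the pathway went both ways. Tgfbr1 was higher on day 30 under propiconazole and triadimefon (0.45 and 0.44), and Tgfb2 under triadimefon on day 30 (0.99). Tgfb1 was lower under propiconazole on day 4 (-1.21) and Tgfbr3 on day 30 (-1.53). Smad2 was lower on day 30 under both conazoles (-0.60 and -0.71). Tgfb1 and Tgfb2 were below background on every array compared. Each of these calls was lost in 2 to 5 of the 38 settings without an array. Of 3 reelin pathway genes, the receptor gene Vldlr was at least 3.51-fold higher under propiconazole on day 30 (adjusted p = 4.6e-04). The adaptor gene Dab1 was higher under propiconazole on both days (0.71 and 0.67, lost in 2 and 3 of 38 settings). Each Dab1 call was also lost in 5 of 8 processing alternatives. Lrp8, the other receptor, was not called in any of the 6.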

How the data were processed

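The 38 arrays were labelled as biological replicates of liver from single groups. Per the labels' protocols, total RNA (4 ug) was amplified and labelled with biotin. The authors deposited linear intensities, 1 for each probe set on an array, and 21.2% lay below 0. The summarising software: not given in the sources used here. Deposited intensities were quantile normalized, values below 0 set to 0, and log2(value + 16) taken, which understates changes of dim genes. Genes were named from the platform annotation (34958 probe sets with 1 symbol) and the brightest probe set by mean stood for each. After 465 constant genes were left out, 17729 were fitted with limma 3.58.1 in R 4.3.3, 1 mean per group over all 38 arrays, with an intensity trend. This gave 17 two-sided comparisons.

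Background was set from 39 olfactory receptor genes, as the 95th percentile of their mean levels (intensity 54.2). A group below it on every array has only a bound. "At least N-fold" sets the brighter mean against the dimmer group's mean with values under background raised to it. The number of arrays limits the precision. Labels do not exclude technical sharing among replicates, and p-values measure the spread between these arrays.

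The members and lists were chosen with earlier results of these data known. The plan was to name, from each list and comparison, up to 2 called genes with the largest change. It was not kept to for each list, and some called genes appear only in counts. Further genes named from lists with 5 or fewer calls were chosen after their values were seen. Deviations of same-numbered arrays correlated at -0.11 to 0.16 (conazole, 45 pairs, 6 over 0.1) and -0.11 to 0.17 (phenobarbital, 30 pairs, 1 over 0.1), so numbers were not treated as pairs. The fit was tested on simulated data. Sequences are from RefSeq (GRCm38.p6), and no genome was used. Alternatives were values as deposited, median centring, a pseudocount of 64, genes above background only, the mean of probe sets, only the arrays compared, array weights, a replicate block and each array left out. Fitting every probe set was added after the data were seen.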

Additional observations from a re-analysis of the deposited data

Results flagged for a closer look

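Among 40 groups of 5 animals examined for a sample far from the rest, 3 held one, and chance alone flags about 1 in 20 groups. Des in phenobarbital day 30 replicate 4 read 5.38, with the other 4 animals at 5.64 to 5.75, all below background. Acta2 in phenobarbital day 30 replicate 1 read 8.73, with the others at 7.92 to 8.07. Lox in phenobarbital day 4 replicate 1 read 5.41, with the others at 5.68 to 5.78, again below background. The change of Lox on day 4 differed between propiconazole and phenobarbital by -1.27 (limma adjusted p = 0.014). It rests on 1 of 3 probe sets, which was below background in the phenobarbital controls, and the experiments differ in array scale as well as in compound.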

How the results depend on the processing

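Among the 10 members no called change turned direction under any alternative. Members called went from 3 to 1 (mean of probe sets), 0 (only the arrays compared) and 0 (array weights) for propiconazole on day 4. On day 30 they went from 1 to 0 with values as deposited, the mean of probe sets, the replicate block and every probe set fitted, and to 2 with only the arrays compared. For triadimefon on day 4 they went from 2 to 1 with the mean of probe sets, array weights, median centring and values as deposited, and to 0 with only the arrays compared and with genes above background only, which drops Lox and Timp1. For phenobarbital on day 4 they went from 0 to 1 with only the arrays compared (Timp1) and 2 with array weights (Timp1, Col4a1). For propiconazole minus triadimefon on day 4 they went from 0 to 1 with median centring and 4 with values as deposited. The 1 call for the propiconazole minus phenobarbital change on day 4 went to 0 with genes above background only, the mean of probe sets, only the arrays compared and array weights. The same difference on day 30, and that of triadimefon, went from 0 to 1 with only the arrays compared (Col4a1). Conazole controls went from 0 to 1 with a pseudocount of 64 and with array weights. Leaving out 1 array at a time gave 2 to 5 members (propiconazole day 4), 0 to 2 (day 30), 0 to 3 (triadimefon day 4), 0 to 1 (triadimefon day 30 and phenobarbital day 4), 0 to 2 (propiconazole minus triadimefon, day 4), 1 to 4 (propiconazole minus phenobarbital change, day 4) and 0 to 2 (conazole controls). The extremes of 5, 4 and 2 came without propiconazole day 4 replicate 1, and that of the controls without its replicate 2.

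The replicate block, which treats equal numbers as shared, left 0 of 10 members called for propiconazole on day 30 (Des adjusted p = 0.070), and Dcn for propiconazole on day 4 had an adjusted p of 0.044. Values as deposited moved the median of all genes by -0.16 (propiconazole day 4) and 0.17 (triadimefon day 4), and calls higher and lower became 224 and 2365 against 1305 and 1158, and 1555 and 112 against 373 and 292. Median centring gave 579 and 1174, and 572 and 174. With only the arrays compared, 6 and 1 genes were called in these comparisons, and with array weights 44 higher and 54 lower for propiconazole on day 4. Of 54 member changes that were not called, 14 had another sign under some of 8 alternatives. Signal over background limits Timp1, Lox, Des and Col1a1 most.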

Other observations

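A second Col4a1 probe set was at or near the floor in all 3 day 30 conazole groups (4.00 to 4.10), and read 6.64 to 8.41 in the 4 groups of the phenobarbital experiment. On day 4 it was uneven within conazole groups, at 4.00 to 7.40 in controls and 4.00 to 7.82 under propiconazole. The brighter Col4a1 probe set read 8.21 to 9.29 on all 38 arrays.

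The biliary markers were 6 measured genes, of which 2 had a mean above background. The share of all genes called was 13.9% and 10.8% under propiconazole on days 4 and 30. On day 4 it was 3.75% under triadimefon and 0.677% under phenobarbital. Sox9, a transcription factor of bile duct cells, changed by 1.06 and 1.61 under propiconazole on days 4 and 30, 1.66 under triadimefon on day 4 and 1.17 under phenobarbital on day 4 (limma adjusted p = 0.0492, 0.0037, 0.0088 and 0.042), and Epcam, an adhesion protein of the same cells, by 0.38 and 0.44 under propiconazole on days 4 and 30 (adjusted p = 0.025 and 0.012). With the mean of probe sets the first of these was -0.18, and it was lost in 30 of 38 settings without 1 array. The triadimefon call of Sox9 was lost in 1 and the phenobarbital call in 8 of 38 settings. The Epcam calls of days 4 and 30 were lost in 2 and 3 of 38 settings and in 4 and 3 of 8 processing alternatives. The lowest Epcam changes among all of these were 0.03 and 0.05.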
